A study of Mus musculus with 12 samples.

Results

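Malat1, Neat1, Meg3, Rian, Mirg, Kcnq1ot1 and Miat are long noncoding RNAs that either stay in the nucleus or come from imprinted loci. They were taken from the count table as the rows whose Ensembl gene identifier maps to each symbol. All 7 were found among the 52962 genes of the table. All 7 were also among the 15598 genes above 1 CPM (the count of a gene scaled to the total of its sample) in at least 3 of the 12 samples, the filter used for every comparison, and Miat passed it only through the non-β-cell samples. The 7 RNAs were selected on their CPM levels and fold changes in all 4 groups, so their levels and differences are given below as a description without a test.

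The samples came from female NOD/ShiLtJ mice, an inbred strain that develops autoimmune diabetes. Islets were cultured overnight and dispersed, and CD45-negative cells were sorted by autofluorescence into β-cells and non-β-cells, at either 4 or 8 weeks of age, with 3 samples in each of the 4 groups. Every group carried the NOD genotype and none was treated, so age and stage of disease cannot be told apart and there is no diabetes-resistant strain among the groups. Each sample was a pool of 3 mice according to the legends of the study, while the labels number the samples without saying what a number shares, so the spread between samples may be partly technical. The non-β-cell fraction is a mixture of the remaining islet cells.

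Malat1 is an abundant transcript of nuclear speckles, the bodies where splicing factors gather. Neat1 is the architectural RNA of paraspeckles, which form only where Neat1 is transcribed and which hold the RNA-binding proteins SFPQ, NONO and PSPC1. Miat, also called Gomafu, marks a separate set of nuclear foci and is best known from neurons. Meg3, Rian and Mirg are transcribed from the maternal chromosome in the Dlk1-Dio3 imprinted domain and host many small nucleolar RNAs and microRNAs. Kcnq1ot1 is transcribed from the paternal chromosome, antisense to Kcnq1, and silences neighbouring genes in cis. In human islets the maternal RNAs of the domain are known for their level in β-cells.

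In the GENCODE M21 annotation of GRCm38, Malat1 (ENSMUSG00000092341) lies at chr19:5795690-5802672 on the minus strand with 6983 exonic bases. Neat1 (ENSMUSG00000092274) lies next to it at chr19:5824708-5845478 on the same strand with 20771 exonic bases, and its short and long isoforms share their 5′ end and cannot be told apart in gene-level counts. The 3 maternal RNAs follow each other on the plus strand of chromosome 12. Meg3 (ENSMUSG00000021268) spans chr12:109541001-109571726 with 18089 exonic bases. Rian (ENSMUSG00000097451) spans chr12:109603940-109661716 with 18234 exonic bases and overlaps 13 small nucleolar RNA genes on its own strand. Mirg (ENSMUSG00000097391) spans chr12:109729764-109749460 with 7292 exonic bases and overlaps 14 microRNA genes on its own strand. Kcnq1ot1 (ENSMUSG00000101609) is a single exon of 93092 bases at chr7:143203458-143296549 on the minus strand, inside Kcnq1. The libraries kept strand, but whether the counting used it is not given in the sources used here, so reads from unspliced Kcnq1 RNA and from Kcnq1ot1 may not be separated. Miat (ENSMUSG00000097767) spans chr5:112213228-112229395 on the minus strand with 9293 exonic bases.

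RefSeq holds the promoter, 250 bases before to 50 after the start, for 6 of the 7 genes, and Neat1 is the missing entry. The promoters of Meg3, Malat1 and Kcnq1ot1 are printed because these 3 RNAs had the most similar profiles over the 12 samples. Capitals mark matches, on either strand, to 7 short motifs: the cAMP response element TGACGTCA, the CCAAT box, the TATA box TATAAA, the hypoxia response element core ACGTG, the heat shock element core GAANNTTC, the STAT site core TTCNNNGAA and the interferon response element core GAAANNGAA. The coordinates are those of GRCm38.p6, and each promoter is written 5′ to 3′ on the strand of its gene.
Meg3, chr12:109540746-109541045, plus strand: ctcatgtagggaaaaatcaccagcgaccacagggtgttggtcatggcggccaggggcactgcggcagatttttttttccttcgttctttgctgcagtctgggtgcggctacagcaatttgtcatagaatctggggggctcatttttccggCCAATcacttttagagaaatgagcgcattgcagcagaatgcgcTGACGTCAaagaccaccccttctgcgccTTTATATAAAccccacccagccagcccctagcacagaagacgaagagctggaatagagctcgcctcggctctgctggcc
Malat1, chr19:5802623-5802922, minus strand: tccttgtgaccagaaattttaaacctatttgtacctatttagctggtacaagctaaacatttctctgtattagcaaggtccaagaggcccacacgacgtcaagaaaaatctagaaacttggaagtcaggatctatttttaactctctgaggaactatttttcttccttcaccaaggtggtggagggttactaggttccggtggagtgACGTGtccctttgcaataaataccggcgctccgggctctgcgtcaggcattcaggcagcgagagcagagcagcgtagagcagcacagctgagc
Kcnq1ot1, chr7:143296498-143296797, minus strand: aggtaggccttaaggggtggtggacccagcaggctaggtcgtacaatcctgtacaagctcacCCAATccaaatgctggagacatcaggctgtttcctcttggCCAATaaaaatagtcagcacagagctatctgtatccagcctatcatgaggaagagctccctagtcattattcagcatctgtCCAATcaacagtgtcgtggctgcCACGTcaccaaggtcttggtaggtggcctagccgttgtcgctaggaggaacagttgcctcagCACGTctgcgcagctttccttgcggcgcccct
RefSeq gives Meg3 a further promoter at chr12:109545148-109545447, which held none of the 7 motifs. The printed Meg3 promoter held TGACGTCA 57 bases before the start, CCAAT 100 bases before it and a pair of overlapping TATAAA matches on opposite strands. TGACGTCA was present in 1.79% of 32851 RefSeq promoters of the same length, CCAAT in 37.4% and TATAAA in 13.6%. The Malat1 promoter held ACGTG once and the Kcnq1ot1 promoter held it at 2 places, where it reads CACGT on the printed strand, and 19.6% of all promoters hold it. The Kcnq1ot1 promoter also held CCAAT at 3 places. Of the other 3 genes, the Rian promoter held a STAT site core and a heat shock element core, present in 8.30% and 7.86% of promoters, Mirg held CCAAT, and Miat held none of the 7 motifs. GAAANNGAA, present in 8.56% of promoters, was in none of these promoters. These are matches of letters only.

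The host role of the 3 maternal RNAs is shown by a few of their microRNAs, which were not measured here because the libraries were made from RNA longer than 200 nucleotides. RefSeq lists 26 mature microRNAs with 25 different seeds for Mirg, 6 for Rian and 3 for Meg3. The seed, bases 2 to 8, is in capitals, and the pair from Mirg with a shared seed is given last.
mmu-miR-770-5p, from Meg3: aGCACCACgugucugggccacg
mmu-miR-370-3p, from Rian: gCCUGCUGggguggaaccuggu
mmu-miR-410-3p, from Mirg: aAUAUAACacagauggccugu
mmu-miR-453, from Mirg: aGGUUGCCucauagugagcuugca
mmu-miR-496a-5p, from Mirg: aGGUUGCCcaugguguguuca
The longest transcripts also differ in how often they hold GGACT, a common form of the sequence in which adenosine is methylated to m6A. Rian held 0.247 per kilobase and Miat 2.07 per kilobase. Malat1, Neat1, Meg3, Mirg and Kcnq1ot1 lay between them, at 0.859 to 1.57 per kilobase, and the median of all lincRNA genes was 0.947.

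The samples held 13755106 to 27040652 estimated counts. The β-cell samples carried 46844 to 113651 CPM of 10 β-cell markers against 3038 to 6004 CPM in the non-β-cell samples. The non-β-cell samples carried 107202 to 136856 CPM of 9 α-cell markers. Of 14 leukocyte genes 2 passed the filter on low counts. Ptprc, which encodes CD45, did not exceed 0.789 CPM in any sample and Nkg7 was at 0 in all 12. Most of the summed leukocyte signal was Cd68. In both fractions the 4-week sample numbered 3 was the lowest of its group for Malat1, Meg3 and Kcnq1ot1, and values without both of these samples are given where they move a result.

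**Figure D1:**
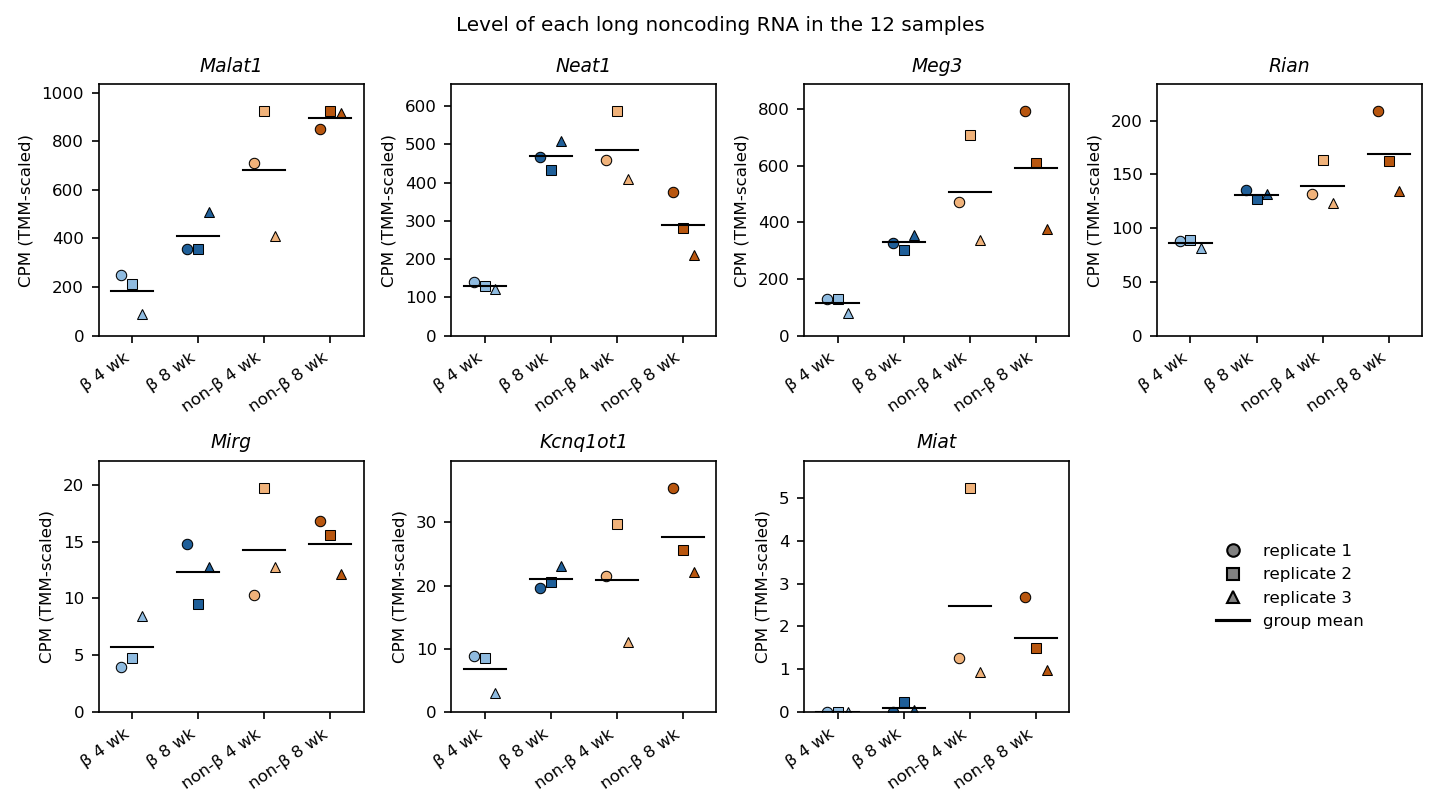
Level in CPM (vertical axis, linear and starting at 0) of each of the 7 RNAs in each of the 12 samples, by group (horizontal axis). Circles, squares and triangles are samples 1, 2 and 3, and the line is the group mean. The 4-week β-cells are the lowest group in all 7 panels, and Neat1 is the RNA whose non-β-cell samples at 8 weeks all lie below those at 4 weeks.

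Neat1 was higher at 8 weeks than at 4 weeks in β-cells and lower at 8 weeks than at 4 weeks in non-β-cells. Its level in 4-week β-cells was 139, 128 and 122 CPM in samples 1, 2 and 3. At 8 weeks it was 466, 432 and 509.7 CPM in β-cells. The lowest 8-week sample was therefore above the highest 4-week sample, with means of 129.9 ± 8.84 and 469 ± 38.9 CPM (SD, n = 3) and a difference of 1.85 ± 0.18 on the log2 scale (SE), or 3.61-fold. In non-β-cells Neat1 was at 459, 586 and 409 CPM at 4 weeks. At 8 weeks it was at 376, 280.4 and 211 CPM in non-β-cells. These groups did not overlap either, and the difference of -0.77 ± 0.18 on the log2 scale, or 1.70-fold lower, had the opposite sign. The β-cells therefore had 3.70-fold less Neat1 than the non-β fraction at 4 weeks and 1.66-fold more at 8 weeks. The difference between the age differences was 2.62 ± 0.26 on the log2 scale, and it was not tested.

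Malat1 was higher at 8 weeks in β-cells and was higher in non-β-cells than in β-cells at both ages. It stood at 249, 210.4 and 89.2 CPM in 4-week β-cells. At 8 weeks the β-cell samples held 358, 357 and 509.9 CPM. The ages did not overlap, and the difference was 1.27 ± 0.34 on the log2 scale, or 2.41-fold, and 0.82 without both 4-week samples numbered 3. The non-β-cells held 711, 923 and 409 CPM of Malat1 at 4 weeks and 852, 924 and 918 CPM at 8 weeks. Their ages overlapped, with a log2 difference of 0.48 ± 0.34, and 0.16 without both 4-week samples numbered 3. The β-cells had 3.86-fold less Malat1 than the non-β fraction at 4 weeks and 2.23-fold less at 8 weeks, without overlap at either age.

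Miat was nearly confined to the non-β-cell fraction. It had 0 counts in all 3 β-cell samples at 4 weeks, and at 8 weeks it was at 0, 0.226 and 0.0401 CPM. The non-β-cells held 1.26, 5.24 and 0.937 CPM at 4 weeks and 2.68, 1.49 and 0.976 CPM at 8 weeks. Over the 3 samples this is 0 counts against 159 at 4 weeks, so that Miat was at least 52.9-fold lower in β-cells, taking 3 counts over the group as the limit that a count of 0 allows. Of the 159 counts 107 lay in sample 2, and the limit was 24.9-fold without it and 32.9- to 37.3-fold without 1 of the β-cell samples. At 8 weeks it is 7 counts against 101, and the level in non-β-cells was 18.8 times that in β-cells (95% interval 8.82 to 48.1, exact, counting error only). Of the 7 counts 6 lay in β-cell sample 2, and the ratio was 84.0 without it (95% interval 14.7 to 3351) and 12.4 without non-β-cell sample 1 (95% interval 5.48 to 32.8). These intervals leave out the spread between samples and the selection of Miat on these values, so they are no test of the difference. Between the ages the β-cell samples overlapped, and the 7 counts at 8 weeks are at least 2.13-fold above the limit at 4 weeks for counts that lie almost wholly in sample 2, so no order of the ages can be read for Miat.

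**Figure D2:**
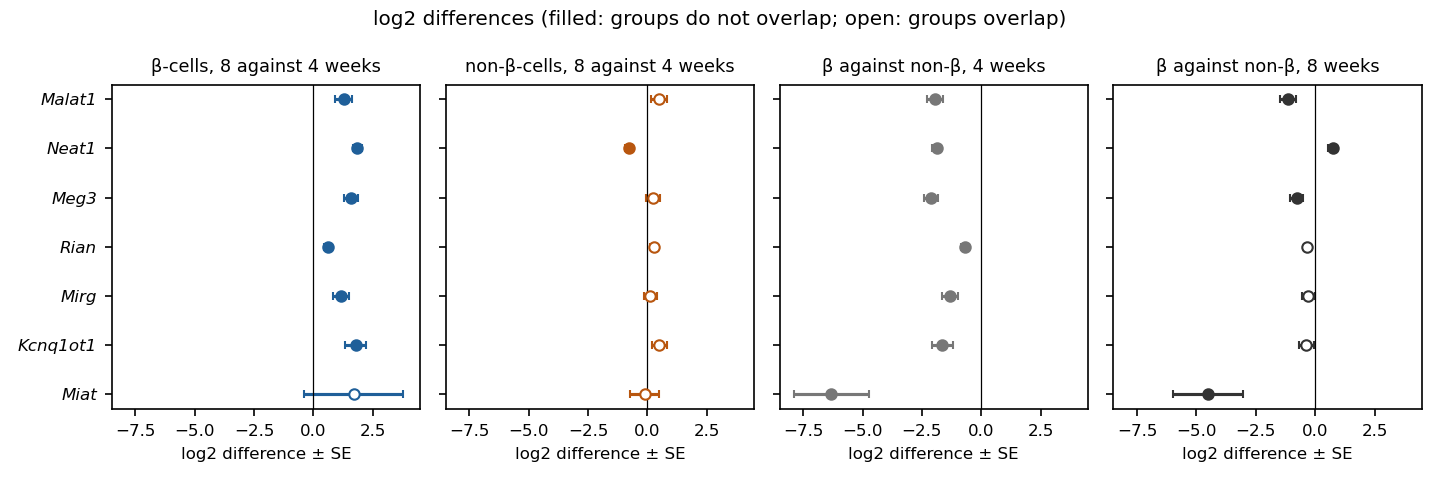
Log2 difference with its SE (horizontal axis) of the 7 RNAs (vertical axis) in the comparisons of age within each fraction and of the fractions within each age. Filled points mark groups whose samples do not overlap and open points groups that do. In β-cells 6 RNAs are filled and lie to the right of 0, and in non-β-cells only Neat1 is filled and lies to the left.

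The maternal RNAs of the Dlk1-Dio3 domain were all higher in 8-week β-cells than at 4 weeks, by different amounts. Meg3 stood at 130.1, 129.8 and 80.3 CPM in 4-week β-cells. At 8 weeks it stood at 328, 301 and 356 CPM in the same fraction. The difference was 1.57 ± 0.29 on the log2 scale, or 2.96-fold, without overlap, and 1.33 without both 4-week samples numbered 3. In non-β-cells Meg3 held 471, 709 and 335 CPM at 4 weeks and 791, 608 and 376 CPM at 8 weeks. The ages overlapped in this fraction, with a log2 difference of 0.23 ± 0.29 that changed sign in 3 of 23 alternative settings. It was -0.02 without both 4-week samples numbered 3. Meg3 was 4.36-fold lower in β-cells than in the non-β fraction at 4 weeks and 1.73-fold lower at 8 weeks, without overlap at either age.

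Rian varied least of the 3 maternal RNAs. In β-cells it was at 88.1, 89.1 and 81.0 CPM at 4 weeks and at 135, 127 and 132 CPM at 8 weeks. The ages were apart, with a difference of 0.61 ± 0.15 on the log2 scale, or 1.52-fold. In non-β-cells it was at 131, 164 and 123 CPM at 4 weeks and at 209, 163 and 134.5 CPM at 8 weeks, which overlapped. Rian was 1.61-fold lower in β-cells than in the non-β fraction at 4 weeks without overlap, while the fractions overlapped at 8 weeks with a log2 difference of -0.34 ± 0.15.

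Mirg was the least abundant of the 3. It was at 3.97, 4.72 and 8.44 CPM in 4-week β-cells and at 14.8, 9.50 and 12.8 CPM at 8 weeks. The difference was 1.14 ± 0.33 on the log2 scale, or 2.21-fold, and unlike Meg3 it was larger, at 1.45, without both 4-week samples numbered 3. The non-β-cells held 10.3, 19.7 and 12.8 CPM at 4 weeks and 16.8, 15.5 and 12.1 CPM at 8 weeks. The fractions were apart at 4 weeks, where Mirg was 2.48-fold lower in β-cells, and overlapped at 8 weeks.

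Kcnq1ot1 had the second largest age difference in β-cells after Neat1 among the RNAs whose ages did not overlap. It was at 8.91, 8.56 and 3.03 CPM in 4-week β-cells. At 8 weeks it was at 19.7, 20.6 and 23.1 CPM. The difference was 1.77 ± 0.43 on the log2 scale, or 3.41-fold, and was 1.27 without both 4-week samples numbered 3. The non-β-cells held 21.6, 29.8 and 11.0 CPM at 4 weeks and 35.4, 25.5 and 22.1 CPM at 8 weeks. These overlapped, with a log2 difference of 0.51 ± 0.33, and 0.15 without both 4-week samples numbered 3. Kcnq1ot1 was 3.13-fold lower in β-cells than in the non-β fraction at 4 weeks without overlap, and at 8 weeks the fractions overlapped.

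Counted together, 6 of the 7 RNAs were higher at 8 weeks in β-cells without overlap and 0 were lower, where 20.7% of all tested genes were higher without overlap and 19.6% were lower. In non-β-cells 0 of 7 were higher and 1 was lower, against 19% and 13.8% of all genes. At 4 weeks 0 of 7 were higher and 7 were lower in β-cells than in the non-β fraction, against 26.5% and 26.7%. At 8 weeks 1 was higher and 3 were lower in β-cells, against 32.5% and 32.4%. The median log2 difference of the 7 was 1.57 for age in β-cells, or 1.27 with Miat at its limit, while that of all genes was 0.02. It was 0.23 for age in non-β-cells, -1.89 between the fractions at 4 weeks and -0.38 at 8 weeks, where the medians of all genes did not exceed 0.01. Because the RNAs were chosen with these values known, nothing is read from the counts, and the 4 comparisons share their samples. The summed level of the 7 RNAs was 0.0536 ± 0.0144% of all counts in 4-week β-cells, 0.136 ± 0.0152% in 8-week β-cells, and 0.187 ± 0.0589% and 0.195 ± 0.0357% in non-β-cells at 4 and 8 weeks (SD, n = 3).

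In the order of the levels, the 4-week β-cells were lowest for every RNA and were separate from the next group for all but Miat. For Malat1, Meg3, Rian and Mirg the order continued with 8-week β-cells, 4-week non-β-cells and 8-week non-β-cells, and each of these neighbours overlapped. For Kcnq1ot1 the 8-week β-cells and the 4-week non-β-cells, with means of 21.1 ± 1.76 and 20.8 ± 9.40 CPM (SD, n = 3), did not differ beyond their spread. For Neat1 the 8-week non-β-cells came second and were separate from the 8-week β-cells above them, which overlapped the 4-week non-β-cells. Miat was separate only between its β-cell and non-β-cell groups.

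Between genes, levels were compared per kilobase of exonic sequence. Malat1 was the highest at 26.2, 58.4, 97.5 and 129 CPM per kilobase in β-cells at 4 and 8 weeks and in non-β-cells at 4 and 8 weeks. Neat1 was at 6.25 CPM per kilobase in 4-week β-cells and at 22.6 in 8-week β-cells. Meg3 was at 6.27 and 18.2 in the same groups over its merged exons, and at 7.79 and 22.6 over its longest transcript, so the order of Neat1 and Meg3 in β-cells depends on the length used. In 8-week non-β-cells Meg3 was the higher with either length, at 32.7 or 40.7 CPM per kilobase against 13.9 for Neat1. Rian lay between 4.72 and 9.25, Mirg between 0.783 and 2.03, and Kcnq1ot1, spread over its long exon, between 0.0734 and 0.298 CPM per kilobase. The per-kilobase levels of Rian and Mirg rest on merged exons as well, and with the longest transcript in their place Rian lay between 10.6 and 20.8 and Mirg between 1.49 and 3.88 CPM per kilobase.

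Neighbouring RNAs did not keep a fixed ratio. In 4-week β-cells there were 0.677, 0.687 and 1.01 Rian counts per Meg3 count. At 8 weeks there were 0.411, 0.422 and 0.370 in β-cells. The non-β-cells ranged from 0.231 to 0.367 at 4 weeks and from 0.264 to 0.358 at 8 weeks, so that the 4-week β-cells were apart from all other samples. Neat1 counts per Malat1 count were 0.560, 0.610 and 1.37 in 4-week β-cells and 1.30, 1.21 and 1.00 at 8 weeks. They were 0.646, 0.635 and 1.00 in 4-week non-β-cells and 0.441, 0.303 and 0.230 at 8 weeks, the lowest 3 of the 12 samples. In both fractions the 4-week sample numbered 3 had the highest Neat1 to Malat1 ratio of its group.

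**Figure D3:**
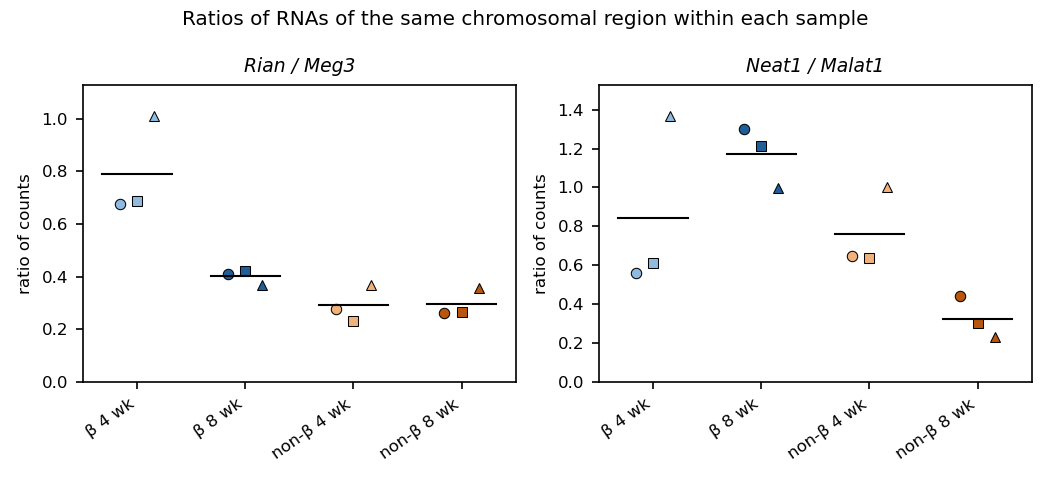
Ratio of estimated counts in each of the 12 samples (vertical axis, linear), for Rian over Meg3 and for Neat1 over Malat1, by group (horizontal axis). Rian over Meg3 is above 0.67 in the 4-week β-cells and below 0.43 in all other samples, and Neat1 over Malat1 is below 0.45 only in the 8-week non-β-cells.

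Other cell types moved between the ages as well. In bulk samples fewer cells of a type and less RNA per cell cannot be told apart. In the β-cell fraction the summed α-cell markers (9 of 9 detected) went from 5879 to 9650 CPM at 4 weeks down to 1764 to 2821 CPM at 8 weeks. The summed β-cell markers went from 46844 to 81881 CPM up to 108014 to 113651 CPM in this fraction, and the PP-cell markers from 247 to 581 CPM down to 189 to 207 CPM. Acinar markers went from 103 to 217 CPM up to 461 to 970 CPM and fibroblast and pericyte markers from 4.36 to 15.7 CPM up to 26.6 to 54.7 CPM in the same samples. In the non-β-cell fraction endothelial markers went from 50.2 to 93.9 CPM at 4 weeks up to 386 to 1051 CPM at 8 weeks, fibroblast and pericyte markers from 107 to 308 CPM up to 697 to 1086 CPM, and acinar markers from 60.0 to 138 CPM up to 241 to 871 CPM. Duct markers were at 833 to 1166 CPM at 4 weeks and 1655 to 1779 CPM at 8 weeks in the β-cell samples, and at 581 to 777 CPM and 1947 to 2174 CPM in the non-β-cell samples. The summed delta-cell markers were at 5312 to 8021 CPM at 4 weeks and 8204 to 11677 CPM at 8 weeks in the non-β-cell samples. Only Sst, 1 of the 4 delta-cell markers, passed the test there, and the median log2 difference of the 4 was -0.08. The glial sum did not exceed 32.4 CPM in any group. The leukocyte sum went from 51.7 to 53.4 CPM at 4 weeks up to 70.2 to 77.6 CPM at 8 weeks in the β-cell samples. In the non-β-cell samples it went from 8.71 to 13.2 CPM up to 15.0 to 20.7 CPM. Cd68 rose in both fractions, by 0.51 ± 0.12 and 0.81 ± 0.19 on the log2 scale (limma-voom adjusted p = 0.0136 and 0.0106). The part of these cell types in the levels of the 7 RNAs was not tested.

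The proteins that build paraspeckles with Neat1 were read from 14 genes, of which 5 rose and 0 fell between 4 and 8 weeks in β-cells in the limma-voom test (adjusted p under 0.05). Across all genes 8.59% rose and 9.35% fell. This list, like the other gene lists below, was chosen with earlier results of these data known. Its counts beside the shares of all genes are therefore a description and no test of the list. The adjusted p-values apply to each gene and do not allow for that choice. A relation of these genes to the level of Neat1 was not tested. Sfpq, an essential paraspeckle protein, was at 85.2, 86.5 and 88.8 CPM in 4-week β-cells and at 165, 171 and 171 CPM at 8 weeks. It rose by 0.96 ± 0.091 on the log2 scale (limma-voom adjusted p = 1.81e-05). Rbm14 rose by 1.10 ± 0.15 (limma-voom adjusted p = 0.000327) and Pspc1 by 0.87 ± 0.13 (limma-voom adjusted p = 0.00054). Ewsr1, named after its values were seen, also rose. Nono, the partner of SFPQ, differed by -0.14 ± 0.087 and did not pass the test (limma-voom adjusted p = 0.301). In non-β-cells 0 of the 14 rose and 1 fell, where 11.6% of all genes rose and 4.8% fell, and the 1 was Taf15, at -0.72 ± 0.12 (limma-voom adjusted p = 0.00108). The age difference was larger in β-cells than in the non-β fraction for 4 of the 14 and smaller for 0, against 1.8% and 3.33% of all genes. Sfpq (0.84 ± 0.13, limma-voom adjusted p = 0.00204), Pspc1 (0.87 ± 0.18, limma-voom adjusted p = 0.0118) and Rbm14 were 3 of these 4. The fourth, Taf15, lost its call in 12 of 22 alternative settings, among them the omission of any sample other than β-cell sample 3 of 4 weeks and non-β-cell sample 1 of 8 weeks.

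**Figure D4:**
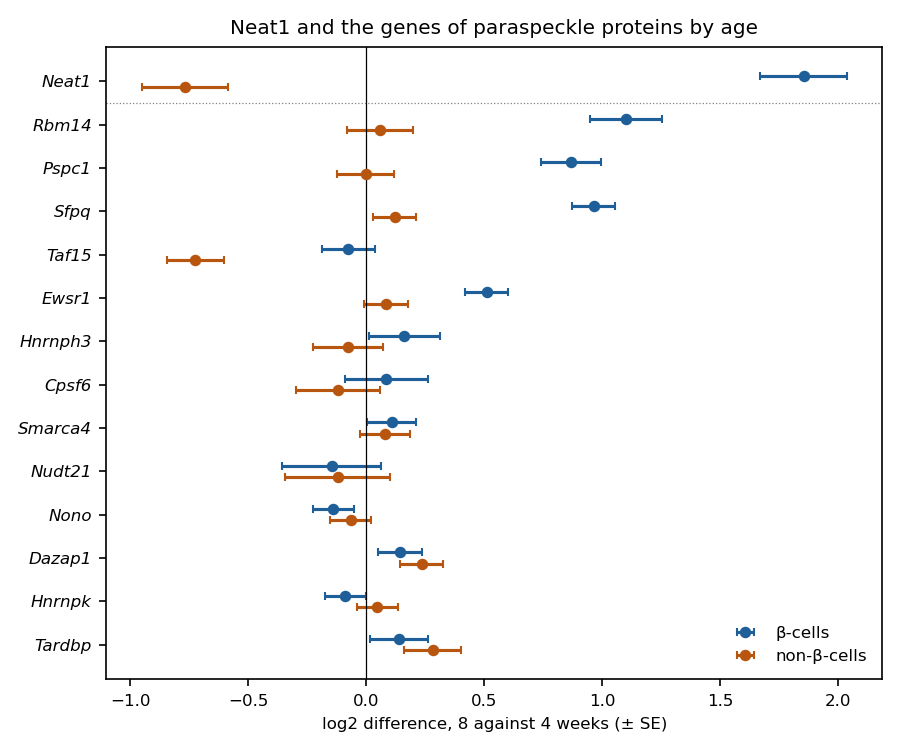
Log2 difference between 8 and 4 weeks with its SE (horizontal axis) of Neat1 and 13 of the 14 genes of paraspeckle proteins (vertical axis), in β-cells (blue) and in non-β-cells (orange). Neat1 lies at 1.85 in β-cells and at -0.77 in the non-β fraction, Sfpq, Pspc1 and Rbm14 lie near 1 in β-cells and near 0 in the non-β fraction, and Nono lies near 0 in both.

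Between the fractions, 1 of the 14 paraspeckle genes was higher and 7 were lower in 4-week β-cells, against 24.9% and 23.7% of all genes. At 8 weeks 2 were higher and 4 were lower, against 23.6% and 25.6%. Sfpq was lower in β-cells at both ages, with log2 differences of -1.56 ± 0.091 at 4 weeks and -0.71 ± 0.090 at 8 weeks (limma-voom adjusted p = 3.09e-08 and 2.73e-05), whereas Neat1 lay above the 8-week non-β-cells. The median over the 14 genes was 0.14 for age in β-cells and 0.05 in the non-β fraction.

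Of 16 genes of nuclear speckle proteins, 6 rose and 0 fell with age in β-cells, where 8.59% of all genes rose and 9.35% fell, and 2 rose and 0 fell in non-β-cells, where 11.6% and 4.8% did. With sample quality weights 10 rose and 2 fell in β-cells. The 6 became 2 without β-cell sample 1 or 3 of 8 weeks and 3 without β-cell sample 2 of 8 weeks or sample 1 of 4 weeks, 2 without the filter on low counts and 3 with only the groups compared, and the 2 became 1 when any of 11 of the 12 samples was left out. Their median log2 difference was 0.33 in β-cells and 0.10 in the non-β fraction. Srsf1, a splicing factor that binds Malat1, was at 23.1, 27.2 and 24.2 CPM in 4-week β-cells and at 62.4, 59.7 and 52.7 CPM at 8 weeks. It rose by 1.22 ± 0.16 on the log2 scale (limma-voom adjusted p = 0.000278), and by 1.16 ± 0.22 more than in non-β-cells (limma-voom adjusted p = 0.00873). At 4 weeks 9 of the 16 were lower and 1 was higher in β-cells than in the non-β fraction, against 23.7% and 24.9% of all genes, and at 8 weeks 6 were lower and 0 were higher, against 25.6% and 23.6%. Of 11 genes of nuclear RNA decay and processing, 3 rose and 1 fell in β-cells with age, while 1 rose without any single 8-week β-cell sample or without 4-week sample 3, and 0 passed the test in non-β-cells. Among them Pabpn1, the nuclear poly(A)-binding protein that takes part in the decay of nuclear noncoding RNAs, rose by 0.70 ± 0.13 on the log2 scale in β-cells (limma-voom adjusted p = 0.00219).

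Of the protein-coding neighbours of the maternal RNAs, Dlk1 did not pass the test for age in either fraction. Dlk1, the paternally expressed gene of the domain, was at 9.72, 10.9 and 13.1 CPM in 4-week β-cells and at 11.3, 14.5 and 9.31 CPM at 8 weeks. The ages overlapped, and the log2 difference of 0.05 ± 0.20 did not pass the test (limma-voom adjusted p = 0.900), whereas Meg3 differed by 1.57 in these samples. Dlk1 was 36.7 to 48.3 CPM in the non-β-cells and was lower in β-cells, with log2 differences of -1.78 ± 0.17 and -1.85 ± 0.17 at 4 and 8 weeks (limma-voom adjusted p = 3.26e-06 and 1.5e-06). Rtl1 and Dio3 did not exceed 0.103 and 0.789 CPM and were not tested. Wdr25, which lies upstream of Dlk1, was the 1 gene of 4 tested in the domain that rose in β-cells, by 0.94 ± 0.17 on the log2 scale (limma-voom adjusted p = 0.00237).

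In the Kcnq1 domain 0 of 9 tested genes rose and 2 fell with age in β-cells, and 1 rose and 1 fell in non-β-cells. Across all genes 8.59% rose and 9.35% fell in β-cells and 11.6% and 4.8% did in non-β-cells, so 1 of 9 is close to the share of all genes. Cd81, a tetraspanin, fell by 0.69 ± 0.13 on the log2 scale in β-cells (limma-voom adjusted p = 0.0029), and Cars was the other. Cars lost its call in 7 of 23 alternative settings, among them the replicate block (limma-voom adjusted p = 0.0553) and the omission of any β-cell sample other than sample 2 of 4 weeks. Cdkn1c, a cell cycle inhibitor and a known target of silencing by Kcnq1ot1, was at 3.31, 2.81 and 3.81 CPM in 4-week β-cells and at 1.99, 0.942 and 1.40 CPM at 8 weeks. The ages did not overlap, and the log2 difference of -1.26 ± 0.42 did not pass the threshold (limma-voom adjusted p = 0.0521) but passed it in 8 of 23 alternative settings. Slc22a18, a gene of the same domain named after its values were seen, went the other way. Its mean in β-cells was 1.46 CPM at 4 weeks and 2.82 CPM at 8 weeks, and the ages overlapped. A relation of either gene to Kcnq1ot1 was not tested. Kcnq1, the potassium channel gene that contains Kcnq1ot1, was at 0.230, 0 and 0.444 CPM in 4-week non-β-cells and at 4.76, 2.61 and 2.36 CPM at 8 weeks. It rose by 4.48 ± 0.95 on the log2 scale (limma-voom adjusted p = 0.00527). The 4-week levels are near 0, and the value ranged from 3.30 to 5.27 over 23 alternative settings. In β-cells Kcnq1 stayed between 0.867 and 1.28 CPM at both ages, where Kcnq1ot1 differed 3.41-fold.

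Other long noncoding RNAs moved in both directions. Of 23 tested RNAs on a list of well-known ones, 4 rose and 6 fell in β-cells with age, and 1 rose and 2 fell in non-β-cells, against 8.59% and 9.35% of all genes in β-cells and 11.6% and 4.8% in non-β-cells. The 3 called in non-β-cells became 1 without non-β-cell sample 1 or 3 of 4 weeks or sample 3 of 8 weeks. Xist, which coats the inactive X chromosome, was at 329, 364 and 122 CPM in 4-week β-cells and at 891, 829.6 and 1213 CPM at 8 weeks, and rose by 1.98 ± 0.45 on the log2 scale (limma-voom adjusted p = 0.0089). Firre, a nuclear RNA that tethers chromosome regions, rose by 1.69 ± 0.25 (limma-voom adjusted p = 0.000509). Snhg1, a spliced and exported host of small nucleolar RNAs, fell by 1.64 ± 0.21 (limma-voom adjusted p = 0.000234). Part of these differences came from 4-week β-cell sample 3, the lowest for Xist and, at 130 CPM against 74.5 and 77.3, the highest for Snhg1. Over 23 alternative settings, among them the omission of that sample, the log2 difference ranged from 1.48 to 2.24 for Xist and from -1.80 to -1.38 for Snhg1. Among all 1029 other tested long noncoding RNAs of the annotation, 8.36% rose and 3.01% fell in β-cells, with a median log2 difference of 0.39. In non-β-cells 5.44% rose and 1.65% fell, with a median of 0.12. At 4 weeks 10.3% were higher and 25.0% were lower in β-cells than in the non-β fraction, with a median of -0.41. Across all genes 24.9% were higher and 23.7% were lower. The share of these RNAs that was lower was close to that of all genes, while the share that was higher was smaller. With age in β-cells the share that rose was likewise close to that of all genes and the share that fell was smaller, at 3.01% against 9.35%. The median of all genes for age in β-cells was 0.02.

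The genes most like each RNA were found by the root mean square (RMS) difference of log2 CPM over the 12 samples, each gene centred on its own mean, among 10170 genes with a mean log2 CPM of at least 3. The measure is a description, and it follows the 4 groups that all genes share. Meg3 was closest to Leng8 at 0.177, followed by Slc12a5 and Firre at 0.225 and 0.234. Kcnq1ot1 was closest to Xist at 0.185, followed by Spaca6 and Tet2 at 0.197 and 0.271. Malat1 was closest to Syne1 at 0.212, Ppp1r9a at 0.240 and Helz2 at 0.264. Rian was closest to Ssh3 at 0.109 and Dennd4b at 0.113, and its own spread was small, with an SD of 0.40. Neat1 had no gene nearer than Rnft2 at 0.350, with Wdr90 at 0.356 and Firre at 0.402. Mirg was nearest to Dtx3 at 0.298, 1700029J07Rik at 0.305 and Chst10 at 0.315. Miat was nearest to Gria2, a glutamate receptor gene, at 0.503, and then to Ptprz1 at 0.636 and Fosl2 at 0.670.

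Among the 7 RNAs themselves, Malat1 and Meg3 were closest at 0.343, followed by Meg3 and Kcnq1ot1 at 0.353 and Malat1 and Kcnq1ot1 at 0.383, although these RNAs come from 3 chromosomes. Rian and Mirg, of the same domain, were at 0.400, while Meg3 was at 0.621 from Rian and at 0.580 from Mirg. Mirg ranked only 2482 in nearness to Rian, whose own SD was 0.40, and Rian ranked 64 in nearness to Mirg. Neat1 and Malat1, adjacent on chromosome 19, were at 0.791.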

How the data were processed

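RNA longer than 200 nucleotides from sorted islet cells was made into libraries with a strand-specific total RNA kit for low input and sequenced. The authors trimmed reads with fastp, assigned them to Ensembl mouse transcripts (GRCm38) with kallisto and deposited gene-level estimated counts made with tximport; software versions are not given in the sources used here. These estimated counts were rounded to whole numbers here. Genes with more than 1 CPM in at least 3 samples were kept, scaled by TMM (edgeR 4.0.16) and fitted with limma-voom (limma 3.58.1, R 4.3.3) as 4 group means over all 12 samples, with two-sided moderated tests and Benjamini-Hochberg adjustment over 15598 genes at 0.05. The scripts were tested on simulated data. Log2 CPM values used a prior count of 2. Symbols were matched for 51916 identifiers through GENCODE M21. Totals of 13755106 to 27040652 counts per sample set the precision, and intervals and limits cover counting error only.

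The 7 RNAs and all lists (paraspeckle, speckle, decay, imprinted, noncoding and mitochondrial genes and cell markers) were chosen with earlier results of these data known. For the 7 RNAs, group differences are therefore given with their SE and no p-value. From each list were named the 3 genes with the largest difference among those past the threshold with a mean log2 CPM of at least 3 and no overlap between groups, plus Dlk1, Rtl1, Dio3, Kcnq1, Cdkn1c, Sfpq, Nono, Pspc1 and Srsf1; a likeness search named the 3 nearest genes of each RNA. Alternatives covered scaling, filters, edgeR and DESeq2 1.42.0 tests, sample weights, replicate blocks and left-out samples. The deposited table held 0 further value columns. Some genes that these rules reach are not reported here.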

Additional observations from a re-analysis of the deposited data

Results flagged for a closer look

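Neat1 had opposite age differences in the fractions, higher in every 8-week β-cell sample and lower in every 8-week non-β-cell sample than in any 4-week sample of the same fraction, and the difference between these differences was 2.62 on the log2 scale. The difference was not tested, because Neat1 was selected on these values. Without both 4-week samples numbered 3 the value was 2.68.

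For genes of the context lists the age difference depended on the fraction by the interaction term of limma-voom (adjusted p under 0.05), and each value is the log2 age difference of the β fraction less that of the non-β fraction. Paraspeckle protein genes gave 0.84 for Sfpq, 0.87 for Pspc1, 1.04 for Rbm14 and 0.65 for Taf15, where Taf15 fell in non-β-cells. The speckle protein gene Srsf1 gave 1.16 and the decay gene Pabpn1 gave 0.66. Among long noncoding RNAs the values were 1.65 for Firre, -1.63 for Snhg1, -0.96 for Snhg12 and -1.32 for Pvt1. Among imprinted genes they were -4.29 for Kcnq1, -0.68 for Gnas, -2.10 for Nnat, 0.58 for Rasgrf1 and 0.74 for Inpp5f. The mitochondrially encoded genes mt-Nd4 and mt-Cytb gave 0.86 and 0.62. Of 22 alternative settings, Pabpn1 lost the call in 16, Kcnq1 and Rasgrf1 in 14, Taf15 and Pvt1 in 12, Gnas in 8, Inpp5f in 6, Snhg12 in 4 and Nnat in 1, while Sfpq, Pspc1, Rbm14, Srsf1, Firre and Snhg1 lost it in 0. Of the 21 settings that keep the mitochondrial genes, mt-Cytb lost the call in 10 and mt-Nd4 in 0.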

How the results depend on the processing

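The number of genes called for age in β-cells was 2799 and became 5382 with sample quality weights. Over the fits that leave out 1 sample it ranged from 1684 to 3114, and it was 1717, 1701 and 1684 without β-cell sample 1, 2 or 3 of 8 weeks. For the difference between the age differences 800 genes were called, against 1562 with the DESeq2 Wald test, 2042 with a replicate block, 2384 with sample quality weights and 1455 without both 4-week samples numbered 3. Leaving out 1 sample gave 450 to 984, with 480, 450 and 463 without β-cell sample 1, 2 or 3 of 8 weeks, 500 without non-β-cell sample 1 of 4 weeks and 498 without non-β-cell sample 3 of 8 weeks. The cause of these shifts was not tested, and the fits that leave out 1 sample also hold fewer samples. For age in non-β-cells 2561 genes were called, with 1906 to 3186 when 1 sample was left out and 1866 to 3701 over all alternatives. For the fractions at 4 weeks the 7570 became 6454 to 7806 and 5926 to 9158 in the same way. At 8 weeks the 7679 became 6378 to 8482 and 6378 to 9507. These counts stayed within 1.5 times in all alternatives. No value past the threshold changed direction. The differences of the 7 RNAs kept their sign except Meg3, Mirg and Miat for age in non-β-cells, where they changed sign in 3, 2 and 2 of 23 alternatives. The value of Miat for age in β-cells was 4.10 with edgeR, 3.45 with DESeq2 and 0.72 without β-cell sample 2 of 8 weeks. Fitting only the groups compared gives no value for the difference between age differences.

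Samples of the same number in the paired fractions correlated at 0.0797, 0.133 and 0.306 at 4 weeks and at 0.0177, 0.0487 and 0.00797 at 8 weeks in their deviations from the group means, and not every sample correlated best with its own number, so the numbers were not taken to pair the samples. With the replicate block the other counts were 2569 and 2408 for age in the β and the non-β fraction and 9158 and 9097 for the fractions at 4 and 8 weeks. Depth limits Miat, with 0 and 7 counts over the β-cell groups.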

Other observations

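Among 31 other imprinted genes tested, 5 rose and 3 fell with age in β-cells and 4 rose and 3 fell in non-β-cells, with median log2 differences of 0.17 and 0.07 (limma-voom, adjusted p under 0.05). Across all genes 8.59% rose and 9.35% fell in β-cells and 11.6% and 4.8% did in non-β-cells. Inpp5f, a phosphoinositide phosphatase gene, rose by 1.00 ± 0.12 on the log2 scale in β-cells and Rasgrf1, a guanine nucleotide exchange factor gene, by 0.79 ± 0.097, while Grb10, an inhibitor of insulin receptor signalling, fell by 0.73 ± 0.15 (limma-voom adjusted p = 9.88e-05, 0.000132 and 0.0053). The count of 8 in β-cells became 5 without β-cell sample 2 of 8 weeks and 15 with sample quality weights. Between the fractions, 7 of the 31 were higher and 13 were lower in β-cells at 4 weeks, against 24.9% and 23.7% of all genes. At 8 weeks 10 were higher and 15 were lower, against 23.6% and 25.6%. Mest, Peg10 and Sgce were lower in β-cells, with log2 differences of -4.37, -4.29 and -4.01 at 4 weeks (limma-voom adjusted p = 4.33e-08, 6.78e-07 and 8.5e-08).

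Of the 13 mitochondrially encoded genes 3 rose in β-cells with age and 3 fell in non-β-cells, where 8.59% of all genes rose in β-cells and 4.8% fell in non-β-cells. The 3 in β-cells became 0 without β-cell sample 2 or 3 of 8 weeks, 1 without β-cell sample 1 of 4 weeks or with only the groups compared, and 5 with the DESeq2 Wald test or sample quality weights. The 3 in non-β-cells became 1 without non-β-cell sample 2 of 4 weeks or sample 1 of 8 weeks, and 6 without both 4-week samples numbered 3. The share of mitochondrially encoded counts was 1.83 ± 0.15% and 2.12 ± 0.31% in β-cells at 4 and 8 weeks and 1.81 ± 0.042% and 1.48 ± 0.086% in non-β-cells (SD, n = 3).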
